A study of Homo sapiens with 6 samples.

Results

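Receptors of the TNF superfamily were followed by mRNA sequencing in a human retinal pigment epithelium (RPE) line with and without POLDIP2, a protein that binds DNA polymerase delta and has roles in the nucleus and in mitochondria. The 10 genes described are TNFRSF9, TNFRSF1A, TNFRSF1B, TNFRSF10A, TNFRSF10B, TNFRSF12A, TNFRSF21, FAS, CD40 and LTBR. They were chosen by name as the receptors to set beside TNFRSF9, and all 10 are among the 37902 genes of the expression table. The cells were ARPE-19, an established line grown from human RPE, under regular maintenance conditions, and RNA was taken on day 3 from 3 biological replicates of the wild type (WT) and 3 of the POLDIP2 knockout (POLDIP2 KO). The knockout was made by lentiviral delivery of SpCas9 with a single guide RNA, followed by puromycin selection and expansion of the transduced cells, and no cloning step is described. Because a single selected population was set against the parental cells, the loss of POLDIP2, the transduction and the selection cannot be told apart. The p-values measure the spread between the replicates of these 2 cell populations. In bulk RNA of this kind, a lower level could mean fewer cells of a type or less RNA per cell, and the 2 cannot be told apart.

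Receptors of this superfamily are transmembrane proteins whose cysteine-rich outer part binds trimeric ligands of the TNF family. Some members carry a death domain in their inner part and can assemble complexes that activate caspases, whereas the others bind TRAF adaptors and lead mainly to NF-kB and MAP kinase signalling. TNFRSF9, also called CD137, is best known as a costimulatory receptor on activated T cells and natural killer cells, where its ligand is TNFSF9. In the retina, TNF signalling is studied for its part in inflammation and in the loss of RPE barrier function.

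TNFRSF9 (ENSG00000049249) lies from 7915871 to 7943165 on the minus strand of chromosome 1 (GRCh38, GENCODE release 44), and its canonical transcript has 8 exons and 5872 bases. Of the 8 listed receptors tested, TNFRSF9 alone passed the call described below, so the sequence around its start is shown. The window is RefSeq's, chr1:7940790-7941089 on the minus strand of GRCh38.p14, written 5′ to 3′ with 250 bases before the annotated start site and 50 after it. The GENCODE gene reaches further upstream than this start. Capitals mark letters that matched an NF-kB consensus or the AP-1 motif TGANTCA, each searched on both strands.
TNFRSF9 promoter: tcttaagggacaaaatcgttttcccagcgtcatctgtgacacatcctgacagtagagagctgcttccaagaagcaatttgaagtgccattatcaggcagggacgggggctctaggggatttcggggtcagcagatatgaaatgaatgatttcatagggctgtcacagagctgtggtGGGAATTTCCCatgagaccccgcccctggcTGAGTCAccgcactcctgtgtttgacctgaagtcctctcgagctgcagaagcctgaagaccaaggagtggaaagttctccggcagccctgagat
The first capital run held an NF-kB match on each strand, from base -74 to -65 and from base -73 to -64 before the start site, which overlap. The second run was an AP-1 match from base -44 to -38, read as TGAGTCA in the letters as printed, and it did not overlap the first. Among 35116 promoter windows of the same length, 11.3% held the NF-kB consensus, 7.71% held the AP-1 motif and 0.615% held both. RefSeq windows were matched for 6 of the 10 receptors, 8 windows in all, and among the 7 windows of the other matched receptors a window of FAS held an NF-kB match and another window of FAS an AP-1 match. These matches describe the letters and were not tied to binding.

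TNFRSF9 rose in POLDIP2 KO cells. Its normalised counts, which are read counts divided by a factor that evens out library size, in replicates 1, 2 and 3 were 96.4, 98.3 and 107 for WT and 770.1, 485 and 432 for POLDIP2 KO. All later values are given in the same order of replicates. Every POLDIP2 KO library was above every WT library, and POLDIP2 KO replicate 1 was the highest of the 6. The means were 100.4 ± 5.38 in WT and 562 ± 182 in POLDIP2 KO (SD, n = 3), a ratio of 5.60. These values rest on 102, 98 and 102 reads in the WT libraries and 626, 596 and 435 reads in the POLDIP2 KO libraries. On the log2(normalised count + 1) scale the difference was 2.43 (SE 0.246, 95% CI 1.85 to 3.01), with an adjusted p of 0.0281 by limma with Benjamini-Hochberg adjustment over 14684 genes. Only 0.17% of the genes tested, 25 in all, passed the same call of an adjusted p under 0.05 and a fold above 1.5. TNFRSF9 was the only one of the 8 receptors tested to do so. The study had already reported TNFRSF9 as upregulated in the same libraries, and the receptors were chosen to stand beside it. Its call is therefore a description and not an independent test. The adjusted p by limma or edgeR ranged from 0.0213 to 0.0484 over the alternatives that kept all 6 libraries. By DESeq2 the adjusted p was 2.66e-14, and 1.70e-13 with a block on replicate number. DESeq2 called 1.69% of all genes tested without that block and 2.67% with it. TNFRSF9 passed in none of the limma fits that left out 1 library, whichever it was. There the adjusted p by limma was 0.0517 to 0.135 and the log2 difference 2.18 to 2.60. Those fits called only 0 to 5 genes among all genes tested, so the loss of the call was not particular to TNFRSF9.

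The share of TNFRSF9 within the receptors does not depend on the library size factor. TNFRSF9 made up 0.362%, 0.306% and 0.398% of the summed normalised counts of the 10 receptors in the WT libraries and 2.59%, 1.41% and 1.49% in the POLDIP2 KO libraries. The lowest POLDIP2 KO share was above the highest WT share, and the mean difference was 1.47 percentage points (exact two-sided permutation p = 0.1, the smallest that 3 against 3 libraries allow). The summed receptors themselves were 28524 ± 3136 normalised counts in WT cells and 31081 ± 2919 in POLDIP2 KO (SD, n = 3), and the groups overlapped (exact two-sided permutation p = 0.4).

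**Figure D1:**
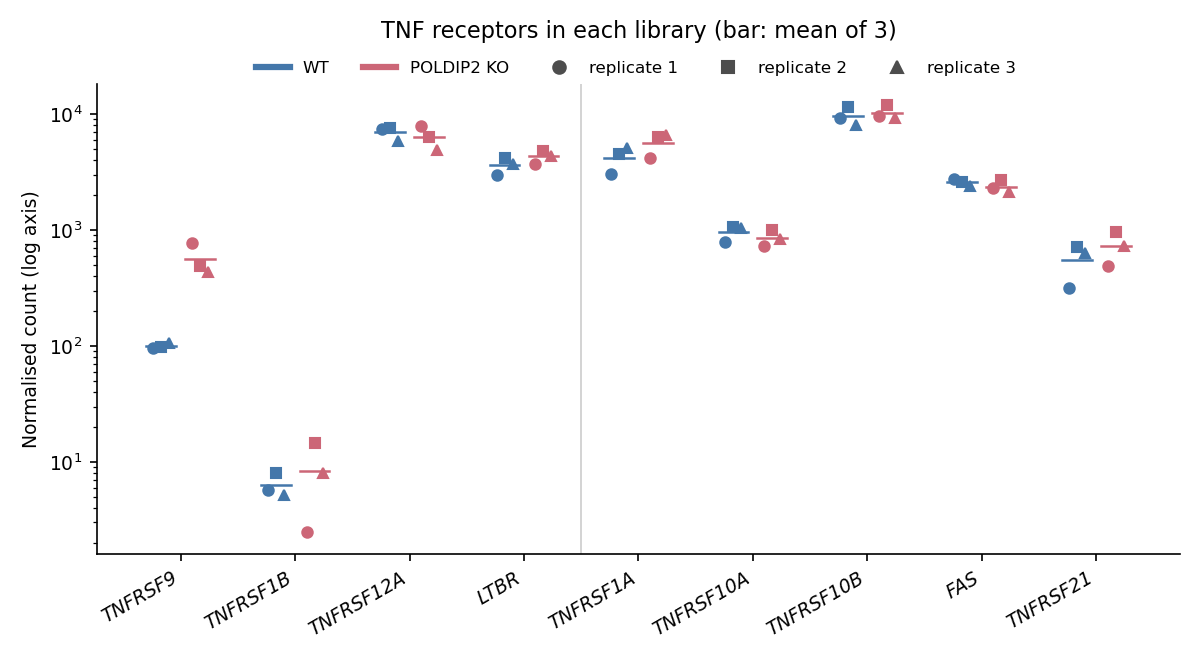
Normalised counts of 9 receptors in each of the 6 libraries (vertical log axis), with each point a library, shapes for replicates, short bars for the mean of 3 and the groups in separate colours; receptors without a death domain stand left of the grey line, and CD40, with no reads in any library, is left out. TNFRSF9 is the receptor whose 3 POLDIP2 KO libraries, at 432 to 770.1, stand clear of its WT libraries at 96.4 to 107.

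Among the receptors without a death domain, only TNFRSF9 passed the test. TNFRSF12A, the receptor of TWEAK (TNFSF12), lies from 3018445 to 3022383 on the plus strand of chromosome 16. It was the most abundant of the 10 receptors per length, with normalised counts of 7459, 7619.5 and 5859.6 in WT and 7939, 6267 and 4912 in POLDIP2 KO. The groups overlapped, and the log2 difference was -0.15 (95% CI -0.61 to 0.31, limma adjusted p = 0.9998). LTBR, the lymphotoxin beta receptor and an activator of the non-canonical NF-kB pathway, lies from 6375045 to 6391571 on the plus strand of chromosome 12. Its normalised counts were 2947, 4185 and 3708 in WT and 3716, 4833 and 4341 in POLDIP2 KO, with 2 POLDIP2 KO libraries above every WT library and replicate 1 inside the WT range. The log2 difference of LTBR was 0.26 (95% CI -0.13 to 0.64, limma adjusted p = 0.986).

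The remaining receptors without a death domain were near or at the floor of detection. TNFRSF1B, the TNF receptor found mainly on immune and endothelial cells, lies from 12166991 to 12209228 on the plus strand of chromosome 1. It had 6, 8 and 5 reads in the WT libraries and 2, 18 and 8 in the POLDIP2 KO libraries. The ranges overlapped, and with a mean normalised count under 10 the gene was not tested. CD40, the costimulatory receptor of B cells and other antigen-presenting cells, lies from 46118271 to 46129863 on the plus strand of chromosome 20. It had 0 reads in each of the 6 libraries, and 3 reads, the upper limit that a count of 0 allows, correspond to 2.44 to 3.69 normalised counts per library. These limits cover counting error only.

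None of the 5 death domain receptors passed the test, and in each of them the WT and POLDIP2 KO libraries overlapped. TNFRSF1A, the widely expressed main receptor of TNF, lies from 6328757 to 6342114 on the minus strand of chromosome 12. Its normalised counts were 3055, 4482 and 5063 in WT and 4133, 6351 and 6529.7 in POLDIP2 KO, with replicate 1 the lowest library of each line. The log2 difference was 0.44 (SE 0.246, 95% CI -0.15 to 1.02, limma adjusted p = 0.955). TNFRSF21, also known as death receptor 6, lies from 47231532 to 47309905 on the minus strand of chromosome 6. It was measured at 315, 706 and 634 normalised counts in WT cells and 487, 962 and 729.8 in POLDIP2 KO. Here too replicate 1 was the lowest library of each line, and the log2 difference was 0.43 with the widest interval among the tested receptors, -0.44 to 1.29 (limma adjusted p = 0.9998).

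FAS, the receptor of FAS ligand and a direct trigger of caspase-8, lies from 88953813 to 89029605 on the plus strand of chromosome 10. Its normalised counts were 2764, 2585 and 2379 in WT and 2314, 2669 and 2106 in POLDIP2 KO, a log2 difference of -0.13 (95% CI -0.42 to 0.16, limma adjusted p = 0.9998). TNFRSF10A and TNFRSF10B are the TRAIL receptors that signal death, and they lie near each other, from 23190452 to 23225102 on the minus strand of chromosome 8 and from 23020133 to 23069031 on the minus strand of chromosome 8. TNFRSF10B was the more abundant of the pair, with normalised counts of 9218, 11409 and 7991 in WT and 9646, 11839.7 and 9193 in POLDIP2 KO. The log2 difference of TNFRSF10B was 0.11 (95% CI -0.28 to 0.50, limma adjusted p = 0.9998). TNFRSF10A had 789, 1051 and 1033 normalised counts in WT cells and 721, 1008 and 831 in POLDIP2 KO, a log2 difference of -0.17 (95% CI -0.59 to 0.25, limma adjusted p = 0.9998). The TRAIL receptor genes are close paralogs, so reads may have been divided between them by the quantification. The intervals of FAS and TNFRSF10B lay within a 1.5-fold difference in either direction, whereas those of the other 5 receptors that did not pass reached beyond it. At an unadjusted p under 0.05, limma called 1 of the 8 tested receptors, TNFRSF9, where 6.48% of all genes tested met that level. The groups did not overlap in 1 of the 8, again TNFRSF9, a share near the 10.9% of all genes tested whose groups did not overlap in either direction. The median log2 difference of the 8 was 0.18, against -0.00029 over all genes tested.

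The replicate 1 libraries of the lines deviated together (correlation 0.315 over all genes tested), so the receptors were also compared within numbered pairs. Replicates 2 and 3 could not be told apart this way. WT replicate 3 correlated at 0.147 with POLDIP2 KO replicate 2 and at 0.129 with POLDIP2 KO replicate 3. The pairs and the blocked fits therefore rest on the labels' numbers for these replicates. TNFRSF9 was higher in POLDIP2 KO in each pair, by 2.99, 2.29 and 2.01 on the log2 scale in pairs 1, 2 and 3. TNFRSF1A differed by 0.44, 0.50 and 0.37, LTBR by 0.33, 0.21 and 0.23 and TNFRSF21 by 0.63, 0.45 and 0.20. In all of these the POLDIP2 KO library was the higher of each pair, and the spread between pairs was small for TNFRSF1A and LTBR beside the spread between libraries of a line. TNFRSF10B was higher in each pair by 0.07, 0.05 and 0.20, and TNFRSF10A was lower in each pair, with differences of -0.13, -0.06 and -0.31. The pairs of FAS (-0.26, 0.05 and -0.18) and of TNFRSF12A (0.09, -0.28 and -0.25) differed in sign. Replicate 1 was the lowest library of both lines for TNFRSF1A, TNFRSF10A, TNFRSF21 and LTBR, 4 of the 8 receptors or 50%, against 20.5% of all genes tested. In total 6 of the 8 tested receptors had the same sign in all 3 pairs, 5 of them higher in POLDIP2 KO, where 32.7% of all genes tested had the same sign. In a limma fit blocked on replicate number, the adjusted p was 0.0477 for TNFRSF9 and 0.123 for TNFRSF1A, and 4 of the 8 receptors (TNFRSF9, TNFRSF1A, TNFRSF21 and LTBR) had an unadjusted p under 0.05, as did 11.1% of all genes tested. DESeq2 with the same block gave an adjusted p of 4.11e-04 for TNFRSF1A, whose fold stayed under the 1.5-fold limit of a call.

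**Figure D2:**
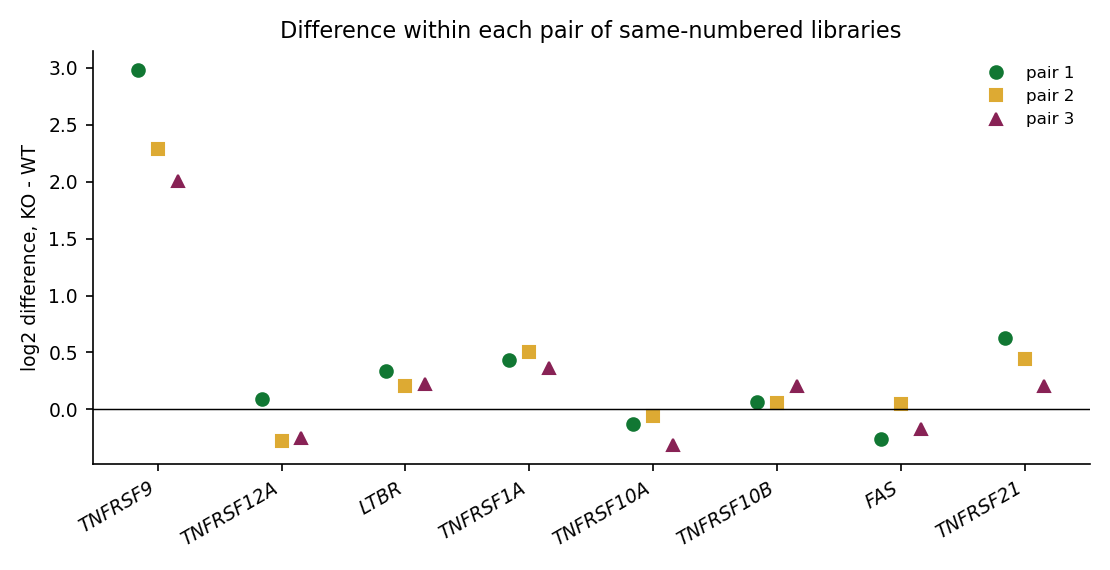
Difference POLDIP2 KO minus WT on the log2(normalised count + 1) scale (vertical axis) within each same-numbered pair of libraries for the 8 receptors tested, 1 point per pair. The 3 pairs of TNFRSF9 lie at 2.01 to 2.99, and those of TNFRSF1A lie close together at 0.37 to 0.50.

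The order of the receptors by level was set per kilobase of canonical transcript, and levels were compared within a line. In WT cells TNFRSF12A led with 7144 ± 996 normalised counts per kb (SD, n = 3), followed by TNFRSF10B with 2386 ± 433, TNFRSF1A with 1935 ± 476 and LTBR with 1693 ± 293. The ranges of TNFRSF10B and TNFRSF1A overlapped, as did those of TNFRSF1A and LTBR, so by canonical length these neighbours did not differ beyond their spread. FAS followed at 697 ± 52.2, TNFRSF10A at 356 ± 54.4 and TNFRSF21 at 153 ± 58.0 normalised counts per kb. TNFRSF9 ranked below these at 17.1 ± 0.916, above TNFRSF1B at 1.71 ± 0.409 and CD40 at 0. In POLDIP2 KO cells TNFRSF9 was at 95.8 ± 31.0 normalised counts per kb, and its rank among the 10 receptors was 8 as in WT, since its highest library (131) was still under the lowest of TNFRSF21 (136). The order of the others differed only at TNFRSF1A, 2612 ± 615, and TNFRSF10B, 2558 ± 354, which overlapped in POLDIP2 KO. The length used matters most for FAS, whose annotated exons together span 29313 bases. With that length FAS stood at 87.9 normalised counts per kb in WT, still above TNFRSF9, and at 80.6 in POLDIP2 KO, where its range overlapped that of TNFRSF9 at 88.5. By the joint length of annotated exons, TNFRSF10B also ranked above TNFRSF1A and TNFRSF1A above LTBR in both lines, without overlap of their ranges.

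Of the other 19 receptors of the superfamily, 8 were tested, 9 had 3 reads or fewer in every library, and 5 had no reads at all. None passed by limma, which called 0.17% of all genes tested, or by edgeR, which called 0.116%. An unadjusted p under 0.05 by limma was met by 1 of the 8, against 6.48% of all genes tested. The same gene was called by DESeq2, which called 1.69% of all genes tested. It was TNFRSF11A, known as RANK, the receptor through which RANKL drives osteoclast formation. Its normalised counts were 221, 143 and 227 in WT and 448, 679.7 and 511 in POLDIP2 KO, and the groups did not overlap. The log2 difference was 1.47 (95% CI 0.88 to 2.06), with an adjusted p of 0.117 by limma and 3.71e-05 by DESeq2. TNFRSF11B, which encodes the soluble RANKL decoy osteoprotegerin, had normalised counts of 17.9, 18.1 and 27.1 in WT and 80.0, 66.8 and 21.8 in POLDIP2 KO. The groups overlapped through POLDIP2 KO replicate 3 (log2 difference 1.21, limma adjusted p = 0.826). TNFRSF10C, a TRAIL decoy receptor, was near the limit of testing at 10.4, 18.1 and 11.5 normalised counts in WT cells and 18.5, 29.3 and 26.8 in POLDIP2 KO (log2 difference 0.87, limma adjusted p = 0.900). The median log2 difference of the 8 tested was 0.02.

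Most ligands of the 10 receptors were low or not detected. TNF, LTA, CD40LG and FASLG, the genes for TNF, lymphotoxin alpha, CD40 ligand and FAS ligand, had 0 reads in each of the 6 libraries. TNFSF10, the gene for TRAIL, had 0, 2 and 0 reads in WT and 0, 2 and 4 in POLDIP2 KO. LTB, whose product forms the LTBR ligand with lymphotoxin alpha, had 0, 0 and 0 reads in WT and 2, 13 and 12 in POLDIP2 KO, too few to be tested. The ligand of TNFRSF9 was detected in both lines, with TNFSF9 at 148, 283 and 234 normalised counts in WT cells and 155, 269 and 175 in POLDIP2 KO. These groups overlapped, and the log2 difference was -0.14 (95% CI -0.89 to 0.61, limma adjusted p = 0.9998). The log2 ratio of TNFRSF9 to TNFSF9, both per kb, was -2.47, -3.37 and -2.98 in the WT libraries and 0.47, -0.99 and -0.54 in the POLDIP2 KO libraries. The ligand thus exceeded the receptor per length in every library but POLDIP2 KO replicate 1, and the ratios of the lines did not overlap (exact two-sided permutation p = 0.1, the smallest possible).

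Of the 18 ligand genes of the superfamily, 7 were tested and none passed by limma, edgeR or DESeq2. These called 0.17%, 0.116% and 1.69% of all genes tested, so no call among 7 genes is near those shares. The median log2 difference of the 7 was -0.02, and 1 had an unadjusted p under 0.05 by limma, against 6.48% of all genes tested. That one was EDA, the gene for ectodysplasin A of skin appendage development, at 69.9, 65.2 and 48.0 normalised counts in WT cells and 9.84, 49.7 and 16.9 in POLDIP2 KO. POLDIP2 KO replicate 2 lay within the WT range (log2 difference -1.52, limma adjusted p = 0.701), and without that library the log2 difference was -2.14. CD70, the ligand of the costimulatory receptor CD27, had 132, 159.5 and 166 normalised counts in WT cells and 188, 208 and 177 in POLDIP2 KO. All 3 POLDIP2 KO libraries of CD70 were above the WT libraries, where 10.9% of all genes tested did not overlap in either direction. The log2 difference of CD70 was 0.32 (limma adjusted p = 0.963). TNFSF12, the gene for TWEAK, had a log2 difference of 0.23 (95% CI -0.28 to 0.75) between 471, 408 and 297 normalised counts in WT cells and 512, 381 and 475 in POLDIP2 KO. TNFSF14, the gene for LIGHT, a ligand of LTBR, was low in both lines at 13.2, 9.03 and 16.7 and 25.8, 16.3 and 17.9 normalised counts (log2 difference 0.60, limma adjusted p = 0.9998).

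**Figure D3:**
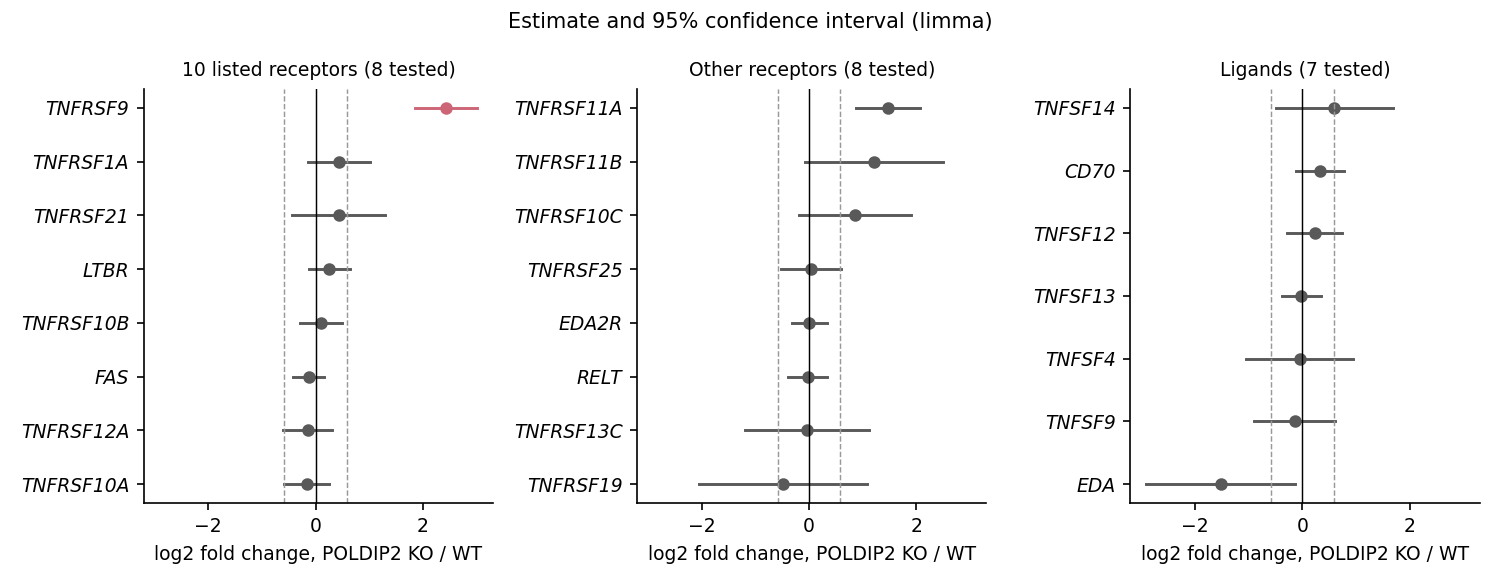
Log2 difference POLDIP2 KO minus WT by limma (horizontal axis) for each tested receptor and ligand, with bars for the 95% confidence interval and dashed lines at 1.5-fold in either direction; red marks a gene that passed the test. TNFRSF9 is red at 2.43, TNFRSF11A follows at 1.47 without passing, and EDA is the lowest at -1.52.

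Of 28 tested genes for adaptors and signalling proteins that act under these receptors, 1 rose and none fell by limma, where 0.17% of all genes tested were called. The gene that rose was TNFAIP3, which encodes the ubiquitin-editing enzyme A20, a feedback inhibitor of NF-kB. Its normalised counts were 133, 219 and 198 in WT and 1039.5, 891 and 696 in POLDIP2 KO, with no overlap. The log2 difference was 2.26 (95% CI 1.68 to 2.84, limma adjusted p = 0.0340). With the replicate block the adjusted p by limma was 0.0586, without the variance trend it was 0.0554, and it was 0.0797 to 0.154 when 1 library was left out, so the call of TNFAIP3 was lost in these fits. BIRC3, an inhibitor of apoptosis recruited to TNF receptors, had normalised counts of 220.1, 255 and 423 in WT and 610.2, 625 and 546 in POLDIP2 KO (log2 difference 1.04). The groups did not overlap, and the adjusted p was 0.291 by limma and 0.0336 by DESeq2, which called 1.69% of all genes tested. TRAF1, an adaptor that binds TNFRSF9, was at 328, 555 and 622 normalised counts in WT cells and 962, 1023 and 739 in POLDIP2 KO. Its groups did not overlap either (log2 difference 0.89, limma adjusted p = 0.457). CASP10, an initiator caspase of death receptors, was low at 23.6, 23.1 and 11.5 normalised counts in WT cells and 46.7, 68.4 and 60.6 in POLDIP2 KO (log2 difference 1.59, limma adjusted p = 0.313). Over the 28 genes, 6 had all POLDIP2 KO libraries above and 3 had all below the WT libraries (against 10.9% of all genes tested in either direction), 5 had an unadjusted p under 0.05 by limma (against 6.48%), and the median log2 difference was 0.07.

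Among 19 tested genes known as targets of NF-kB, 3 rose and none fell by limma, where 0.17% of all genes tested were called. The 3 were TNFAIP3, CCL2 and SOD2. SOD2 (ENSG00000112096), the gene for the mitochondrial superoxide dismutase, rose from 4619, 5447 and 5949 normalised counts in WT to 29268, 23644 and 22446 in POLDIP2 KO. Every POLDIP2 KO library was above the WT libraries, with a log2 difference of 2.23 (95% CI 1.88 to 2.58, limma adjusted p = 0.00961). CCL2, the gene for a chemokine that attracts monocytes, was at 1375, 1734 and 1935 normalised counts in WT cells and 9014, 7593 and 6021 in POLDIP2 KO. The log2 difference was 2.16 (95% CI 1.72 to 2.60, limma adjusted p = 0.0204), and the adjusted p was 0.0517 to 0.114 when 1 library was left out, so that this call was lost too. TNFAIP2, another TNF-induced gene, had 39.7, 100.3 and 249.5 normalised counts in WT cells and 2646, 1311 and 1161 in POLDIP2 KO (log2 difference 3.98, limma adjusted p = 0.105). Its log2 difference was 3.32 without WT replicate 1 and 4.63 without WT replicate 3. WT replicate 3 was the highest of the WT libraries, and POLDIP2 KO replicate 1 the highest of all. ICAM1, an adhesion molecule for leukocytes, had 598, 856 and 746 normalised counts in WT cells and 3240.4, 2051 and 1467 in POLDIP2 KO (log2 difference 1.56, limma adjusted p = 0.165). CXCL1, a neutrophil chemokine gene, had 5, 1 and 1 reads in WT and 85, 69 and 35 in POLDIP2 KO (limma adjusted p = 0.0862). All 19 had a higher mean log2 value in POLDIP2 KO, 13 of them without overlap (against 10.9% of all genes tested) and 13 with an unadjusted p under 0.05 by limma (against 6.48%), and the median log2 difference was 1.52 against -0.00029 over all genes tested. The log2 differences of the 19 ran from 0.01 to 4.39, and in the genes outside the 13 without overlap the groups overlapped. The list shares TNFAIP3, BIRC3 and TRAF1 with the signalling genes. It was chosen with earlier results of these data known. The study had reported SOD2, CCL2, TNFAIP3, ICAM1, CXCL1 and CXCL2, another gene of the list, as upregulated in the same libraries. The shares of this list are therefore a description and not a test of NF-kB targets. DESeq2 called 10 of the 19 where it called 1.69% of all genes tested, and 12 with the replicate block where it called 2.67%, whereas limma with the block called 2 of the 19 and 0.204% of all genes tested.

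The lists for p53 targets and for receptor shedding held no gene that passed by limma, edgeR or DESeq2. These called 0.17%, 0.116% and 1.69% of all genes tested, so in lists this short the absence of calls is near those shares. Of 11 tested p53 targets, which act in apoptosis, cell cycle arrest and DNA repair, none had an unadjusted p under 0.05 by limma. That level was met by 6.48% of all genes tested. The median log2 difference of the 11 was 0.06. The smallest p-values belonged to RRM2B, a ribonucleotide reductase subunit (0.40 on the log2 scale), ZMAT3, an RNA-binding p53 target (0.24), and BAX, a pore-forming protein of apoptosis (0.20). The 5 genes for proteases and inhibitors that control receptor shedding had a median log2 difference of 0.08. None had an unadjusted p under 0.05 by limma, against the same 6.48%. TIMP3, a protease inhibitor of the RPE basement membrane, differed by 0.48 (95% CI -0.62 to 1.58), ADAM10 by 0.15 and ADAM17, the protease that cleaves TNF and its receptors, by 0.08 (95% CI -0.25 to 0.42).

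**Figure D4:**
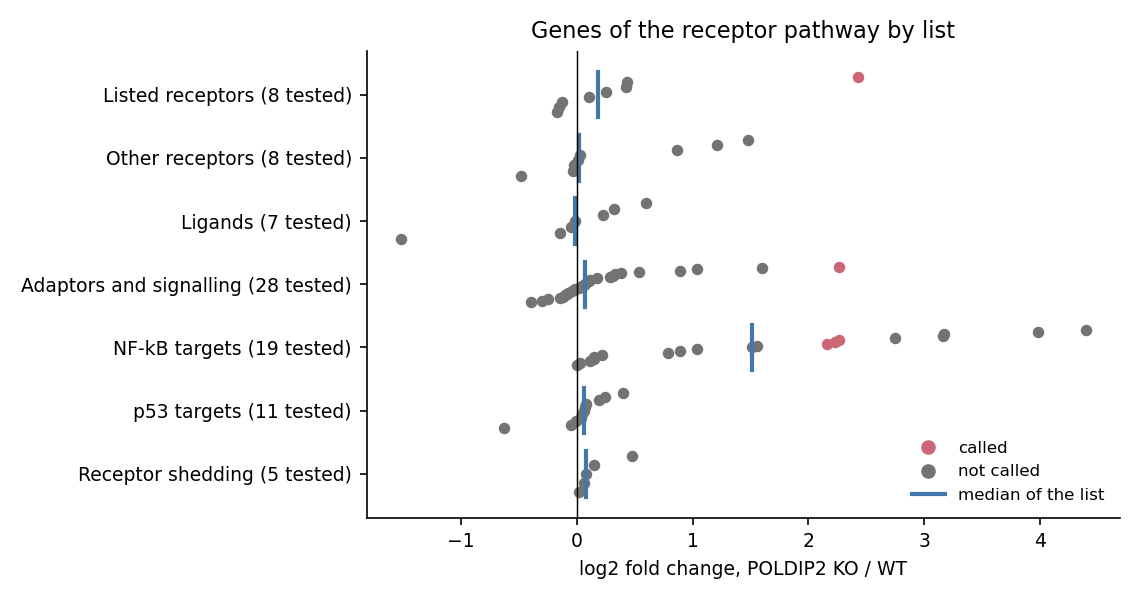
Log2 difference POLDIP2 KO minus WT by limma (horizontal axis) for each tested gene of each list, with each dot a gene, red dots for genes that passed the test and a blue bar at the median of the list. The NF-kB targets have their median at 1.52, and the medians of the other lists of receptors, ligands, signalling genes, p53 targets and shedding genes lie between -0.02 and 0.18. The lists were chosen with earlier results of these data known.

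The genes whose pattern over the 6 libraries was most like that of TNFRSF9, by Pearson correlation of log2 values among 14683 other genes, were CYB5A (r = 0.995), SOD2 (0.993), ALDH1L2 (0.992), CCL2 (0.991) and DCTD (0.990). These correlations are carried by the difference between the lines, and the libraries share their replicate numbers, so they are given as a description. CYB5A encodes the electron carrier cytochrome b5 and had normalised counts of 861, 908 and 879 in WT and 1345, 1201 and 1195 in POLDIP2 KO (log2 difference 0.50, limma adjusted p = 0.231). ALDH1L2, a mitochondrial folate enzyme, had 0 reads in the WT libraries and 36, 12 and 14 reads in the POLDIP2 KO libraries, and it did not pass (limma adjusted p = 0.186). DCTD, the dCMP deaminase of nucleotide synthesis, had 4946, 4942 and 4966 normalised counts in WT cells and 5948, 5816 and 5543 in POLDIP2 KO, a log2 difference of 0.22 (limma adjusted p = 0.717).

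Each library held 31532797 to 45795509 reads, as recovered from the normalised values. POLDIP2 itself, the targeted gene, fell from 3919, 4827 and 4798 normalised counts in WT to 1063, 1248 and 1143 in POLDIP2 KO, a log2 difference of -1.97 (limma adjusted p = 0.00961), and without WT replicate 2 or 3 or POLDIP2 KO replicate 2 or 3 the adjusted p by limma was 0.0558 to 0.0886 for POLDIP2 and likewise for SOD2. Of the RPE markers, RPE65 had no reads in any library. None of the 9 others was called by limma, which is near the 0.17% of all genes tested that were called. The epithelial keratins KRT8 and KRT18 had 28660 to 46438 reads a library, RDH10 3506 to 10221 and MITF 3428 to 4659. Levels were lower for OTX2 (519 to 880 reads), BEST1 (65 to 674), RDH5 (153 to 308), PMEL (37 to 105) and RLBP1 (16 to 68). Because TNFRSF9, TNFRSF1B and CD40 are known from immune cells, 14 lymphoid and myeloid markers were read as well. Of these, 7 had 0 reads in every library, among them CD3D, CD3E, CD2 and CD4, and PTPRC, the pan-leukocyte marker, had 0, 0 and 0 reads in WT and 1, 4 and 7 in POLDIP2 KO. The part of the few PTPRC reads in the TNFRSF9 result was not tested. The 14 markers summed to 1713 to 2262 normalised counts in WT cells and to 1902 to 2175 in POLDIP2 KO, nearly all of it CD68, a lysosomal protein. Without CD68 the sum was 33.1 to 74.2 in WT and 43.7 to 46.4 in POLDIP2 KO.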

How the data were processed

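RNA from 3 WT and 3 POLDIP2 KO cultures was sequenced from stranded poly(A) libraries. The authors quantified transcripts with Salmon 1.8 and normalised gene values with DESeq2 1.34.0 on GRCh38, and deposited a signal per gene, namely counts divided by a size factor; the annotation release is not given in the sources used here. GENCODE release 44 named 34152 of the 37902 identifiers. The identifier of SOD2, absent from that release, was named from the study's supplementary table. RIPK3, RNF31 and SESN2 were not analysed here. No column was left unused.

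Dividing each library by its smallest step gave whole reads for 100% of values within 0.001. The step was near 1 for WT replicate 2 and for POLDIP2 KO replicate 3, so wholeness was checked on values above 1000, of which 100% were whole after division and 0.18% and 0.196% before it. Genes with a mean of at least 10 were fitted with limma 3.58.1 (trend) on log2(normalised count + 1) and called at a Benjamini-Hochberg adjusted p under 0.05 and a fold above 1.5. The standard errors are those of limma. edgeR 4.0.16 and DESeq2 1.42.0 on the recovered reads were alternatives, beside other pseudocounts, filters and scalings, the replicate block and leaving out each library. The fits were tested on simulated reads with known changes. The false share of calls was 6.93% by limma, 7.43% by edgeR and 10.2% by DESeq2. The simulation gave all genes the same dispersion and held no shared replicate effect, unlike these libraries.

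The libraries were paired by the replicate numbers of their labels. Deviations from the group means correlated at 0.315, 0.137 and 0.129 over 14684 genes for equal numbers, and at -0.259 to 0.147 for unequal ones. The unequal value of 0.147 was above the equal ones of 0.137 and 0.129, so only the pair at 0.315 stood out. The other pairs rest on the labels' numbers alone.

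The receptors and the gene lists (other receptors, ligands, adaptors and signalling, NF-kB targets, p53 targets, receptor shedding, RPE markers, lymphoid and myeloid markers) were chosen with earlier results of these data known. The text names every receptor of the 10, the called genes and the 3 smallest p-values of each list, the known ligands, the 5 genes most like TNFRSF9 and POLDIP2; markers are named as examples. Promoters came from RefSeq on GRCh38.p14.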

Additional observations from a re-analysis of the deposited data

How the results depend on the processing

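TNFRSF9 was the 1 receptor of the 8 tested that was called under each of the 12 alternatives that kept all 6 libraries, and 0 receptors were called when any 1 library was left out. Over all genes, 25 were called by limma, 16 with a mean of at least 50, 248 by DESeq2 and 392 by DESeq2 with the replicate block. Leaving out 1 library gave 0 to 5 calls, with 0 without WT replicate 2 or 3 or POLDIP2 KO replicate 2 or 3, 4 if POLDIP2 KO replicate 1 and 5 if WT replicate 1 was left out. With the replicate block, limma called 30 genes, 15 of them shared with the fit without it, and among the genes named it ended the call of TNFAIP3 and no other. edgeR called 17. The log2 difference turned sign for TNFRSF10B without WT replicate 3 (-0.013) or POLDIP2 KO replicate 2 (-0.0031), over a range of -0.013 to 0.24 with 1 library left out. It also turned for TNFRSF12A without POLDIP2 KO replicate 3 (range -0.32 to 0.025), for ADAM17 without WT replicate 1 (-0.023 to 0.18), and for TNFSF9 without WT replicate 2 or POLDIP2 KO replicate 1 (-0.41 to 0.057, with 0.017 in the latter). The cause was not tested, and none of these 4 genes passed the test under any setting. With 3 libraries a line, intervals of most receptors leave room for a 1.5-fold difference, and TNFRSF1B and CD40 are limited by depth.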
